A study of Homo sapiens with 6 samples.

Results

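The proteasome genes of CAL62 cells were compared by RNA-seq between cultures given 50 nM erianin and cultures given DMSO, its solvent, for 48 h (3 libraries per treatment). CAL62 is an established anaplastic thyroid carcinoma line, labelled wild type in all 6 libraries, and the labels describe 3 replicate experiments. The genes were chosen by name: every row whose identifier belongs to a protein-coding gene with a symbol of the form PSMA to PSMG followed by a number. Of 48 such symbols, 45 had a row among the 39327 rows with an identifier, and PSMA1, PSMA2 and PSMB3 were not analysed here. The naming rule used no measured value, but the members were chosen with earlier results of these data known. After a filter on low counts 43 of the 45 were tested. The others were PSMA8, an alpha subunit of the testis, which was listed at 0 in all 6 libraries, and PSMB11, a beta subunit of the thymus, which had 2, 0 and 2 reads with DMSO and 1, 0 and 0 with erianin. The data come from a bulk culture of 1 line at 1 dose and 1 time.

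The proteasome is the protease that degrades most short-lived and misfolded proteins of the cell after they are tagged with ubiquitin. Its barrel-shaped core, the 20S particle, is built from PSMA subunits, which form the outer alpha rings and the gate, and PSMB subunits, which form the inner beta rings and hold the proteolytic sites. The cap, the 19S particle, recognises tagged proteins, removes the ubiquitin, and unfolds and feeds the chain into the core through a ring of PSMC ATPases. Dividing cells, tumour cells among them, depend on it to remove cyclins and to keep their protein pool in balance, and when its capacity falls short the transcription factor NRF1, encoded by NFE2L1, is known to raise many of its genes together through antioxidant response elements in their promoters.

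Reads counted on named genes ranged from 25776301 to 34107727 per library, and expression is in CPM (counts relative to the library size, corrected for composition by TMM) unless TPM is stated. DMSO replicate 3 stood apart from the other libraries, so each main count is also given without it. For the 43 tested proteasome genes, DMSO replicates 1 and 2 differed from each other by a median of 0.05 on the log2 scale, and DMSO replicate 3 differed from their mean by a median of 0.36, from -1.12 to 0.56, being below both for 28 genes and above both for 15. The 3 erianin libraries spanned a median range of 0.09. The line's markers were checked in the same libraries. Among the thyroid markers PAX8 was abundant, at 419 to 739 CPM, FOXE1 was at 1.07 to 2.28 CPM, and TG, TSHR, SLC5A5 and NKX2-1 did not exceed 0.381 CPM in any library, while the keratins KRT8, KRT18 and KRT19 and vimentin (VIM) were at 348 CPM or more. The blood, endothelial and stromal markers PTPRC, CD3E, PECAM1, PDGFRB, LUM and DCN did not exceed 0.343 CPM, and CD14 was at 1.80 to 4.33 CPM. PAX8 and VIM were lower with erianin, PAX8 at 645, 642 and 739 CPM against 433, 433 and 419 CPM (log2 fold change -0.66, edgeR adjusted p = 0.00404) and VIM at a log2 fold change of -0.47 (edgeR adjusted p = 0.0300), and the part of this in the results that follow was not tested.

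The promoters of the 6 genes that rose with erianin, at an adjusted p under 0.05 in the comparison that follows, are shown first because the results turn on these members. Each line gives the RefSeq window on GRCh38.p14 from 250 bases before to 50 bases after the annotated start, read 5′ to 3′ on the strand of the gene. Capitals mark matches, on either strand, to the core of the antioxidant response element (TGACNNNGC), to the CCAAT box (CCAAT) and to an ETS factor motif (CCGGAAG).
PSMA3, chr14:58244593-58244892, + strand: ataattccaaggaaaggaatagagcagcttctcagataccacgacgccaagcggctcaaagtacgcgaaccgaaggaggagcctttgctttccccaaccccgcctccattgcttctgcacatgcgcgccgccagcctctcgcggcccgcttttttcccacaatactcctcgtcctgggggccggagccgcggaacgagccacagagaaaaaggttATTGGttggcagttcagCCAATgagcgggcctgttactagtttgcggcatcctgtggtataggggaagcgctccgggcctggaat
PSMC2, chr7:103347393-103347692, + strand: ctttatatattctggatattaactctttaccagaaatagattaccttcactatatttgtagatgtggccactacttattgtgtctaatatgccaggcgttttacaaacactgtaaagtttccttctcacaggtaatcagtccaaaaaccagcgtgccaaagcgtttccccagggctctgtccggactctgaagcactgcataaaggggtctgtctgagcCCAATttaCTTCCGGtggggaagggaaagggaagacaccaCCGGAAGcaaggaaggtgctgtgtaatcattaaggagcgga
PSMC4, chr19:39970915-39971214, + strand: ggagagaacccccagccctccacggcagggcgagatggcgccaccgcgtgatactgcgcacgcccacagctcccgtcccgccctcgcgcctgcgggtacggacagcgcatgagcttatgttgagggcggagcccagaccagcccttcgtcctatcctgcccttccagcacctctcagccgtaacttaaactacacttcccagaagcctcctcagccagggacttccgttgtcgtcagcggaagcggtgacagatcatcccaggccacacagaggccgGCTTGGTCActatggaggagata
PSMC6, chr14:52706950-52707249, + strand: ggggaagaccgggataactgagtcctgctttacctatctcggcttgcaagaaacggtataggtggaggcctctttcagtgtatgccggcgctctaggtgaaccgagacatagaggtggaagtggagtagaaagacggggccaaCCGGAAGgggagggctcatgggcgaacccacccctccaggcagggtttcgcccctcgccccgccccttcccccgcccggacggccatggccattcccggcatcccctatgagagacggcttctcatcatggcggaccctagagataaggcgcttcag
PSMD14, chr2:161308175-161308474, + strand: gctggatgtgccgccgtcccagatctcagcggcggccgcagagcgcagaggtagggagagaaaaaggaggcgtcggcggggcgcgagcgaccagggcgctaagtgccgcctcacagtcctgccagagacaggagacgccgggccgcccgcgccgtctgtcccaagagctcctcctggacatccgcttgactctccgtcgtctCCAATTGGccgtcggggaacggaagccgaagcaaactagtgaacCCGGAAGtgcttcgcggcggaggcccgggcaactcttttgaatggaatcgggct
PSMD10, chrX:108091493-108091792, - strand: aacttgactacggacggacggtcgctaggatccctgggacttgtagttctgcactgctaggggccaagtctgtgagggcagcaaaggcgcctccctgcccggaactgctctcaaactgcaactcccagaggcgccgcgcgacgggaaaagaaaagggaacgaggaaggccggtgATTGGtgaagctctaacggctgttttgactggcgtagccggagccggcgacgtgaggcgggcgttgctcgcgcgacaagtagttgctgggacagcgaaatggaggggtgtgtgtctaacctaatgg
The PSMC4 window held the only match to the antioxidant response element core among the 6, downstream of the start, and no CCAAT or ETS match. PSMC2 and PSMD14 held both CCAAT and ETS matches, the 2 CCAAT matches of PSMD14 overlapping on opposite strands, PSMA3 and PSMD10 held CCAAT matches alone, and PSMC6 an ETS match alone. No base of these windows belonged to matches of 2 different motifs.

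Windows were at hand for 39 of the 45 genes. The antioxidant response element core was found in the windows of 14 of the 39, 35.9%, against 16.1% of the 27305 genes in the RefSeq table. These were PSMA4, PSMB9, PSMC4, PSMC5, PSMD1, PSMD12, PSMD3, PSMD5, PSMD9, PSME1, PSME2, PSME4, PSMG1 and PSMG2. The ETS motif was found in 15 of 39, 38.5%, against 12.2% of all genes, and the CCAAT box in 18 of 39, 46.2%, against 39.7%. The interferon-stimulated response element (ISRE) was found in 7 of 39, 17.9% against 4.38%. The 7 were PSMA4, PSMB4, PSMB8, PSMB10, PSME1, PSME2 and PSMG4, while PSMB9 held no match. The CARE motif read by ATF4 (TGATGNAA) was found in 1 of 39, PSMF1, 2.56% against 4.46%. Of the 6 genes that passed, 1 held the antioxidant response element core, compared with 13 of the other 33 with a window. For the CCAAT box these counts were 4 and 14, for the ETS motif 3 and 12, for the ISRE 0 and 7, and for CARE 0 and 1. None of these differences was tested. A match describes the letters of the window and not the binding of a factor, and genes with several annotated starts were counted as holding a motif if any window did.

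Expression of 6 of the 43 tested proteasome genes rose with erianin and none fell, at an adjusted p under 0.05 from edgeR. The 6 were PSMA3 of the alpha ring, the ATPases PSMC2, PSMC4 and PSMC6, the deubiquitinase PSMD14, and PSMD10 (gankyrin), an assembly chaperone of the cap. By the same test 7.22% of all 12821 genes rose and 7.69% fell. The increases were small, between 1.23-fold and 1.37-fold, and no member reached the log2 fold change of 0.5 that was also required here of a DEG, as 5.37% of all genes did upwards and 3.36% downwards. At an unadjusted p under 0.05, 9 members were higher and 1, PSMD8, was lower, where 15.3% of all genes were higher and 15.6% lower. DESeq2 called the same 6 genes and no lower one, where it called 6.91% of all genes higher and 7.76% lower. Over the 43 genes the median log2 fold change was 0.09, with 28 above 0 and 15 below, against 0.00 for all genes tested, of which 50.3% were above 0. In 27 of the 43 the absolute log2 fold change was under 0.2. In a bulk culture, fewer cells with a given level and less RNA per cell cannot be told apart.

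**Figure D1:**
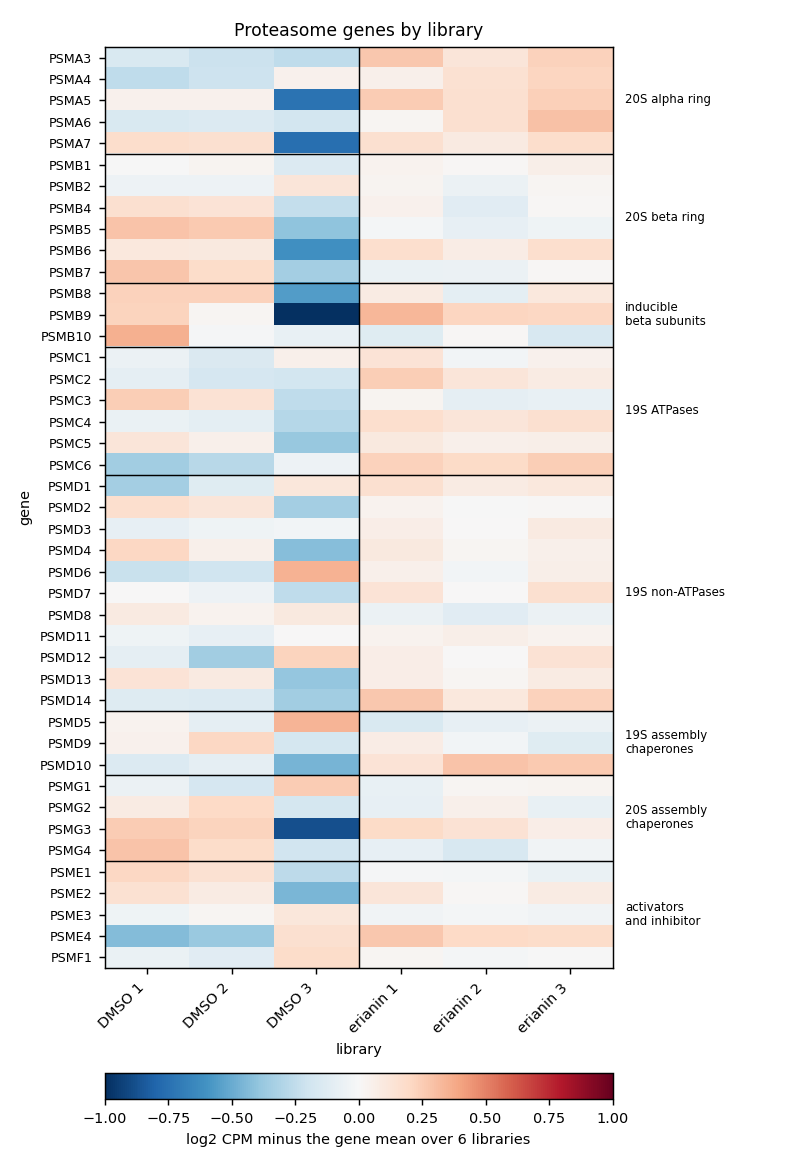
Expression of the 43 tested proteasome genes in each library, as the log2 CPM of the gene minus its mean over the 6 libraries (colour), with genes as rows grouped by subcomplex and libraries as columns. The 3 erianin columns are close to each other, while the DMSO replicate 3 column is below both other DMSO columns for 28 genes and above both for 15.

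The CPM values of all 3 erianin libraries lay above all 3 DMSO libraries for 13 members, where 19.5% of all genes tested did so, and below them for 1 member, where 19.3% did. The 13 were PSMA3, PSMA4, PSMA5, PSMA6, PSMC2, PSMC4, PSMC6, PSMD3, PSMD7, PSMD10, PSMD11, PSMD14 and PSME4, and the 1 was PSMD8. For the other 29 members the groups overlapped. Against DMSO replicates 1 and 2 alone, the erianin libraries lay above for 18 members, where 35.2% of all genes did, and below for 12, where 33.8% did.

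In the alpha ring, whose subunits form the gate of the core, all 5 tested genes had positive log2 fold changes, with a median of 0.32, and 1 passed. PSMA3 (ENSG00000100567, chr14:58244831-58272012 in GENCODE release 29 on GRCh38) had 69.6, 66.6 and 64.8 CPM with DMSO and 93.5, 83.9 and 90.9 CPM with erianin. Every erianin library was above every DMSO library, and the log2 fold change was 0.42 (SE 0.08, edgeR adjusted p = 0.0144). An antisense gene, PSMA3-AS1, overlaps it, and it is not known if reads were counted by strand. PSMA4 had 60.5, 62.7 and 74.2 CPM with DMSO and 75.0, 80.2 and 83.7 CPM with erianin (log2 fold change 0.27, SE 0.10, edgeR adjusted p = 0.110). The groups did not overlap, but DMSO replicate 3 came within 1 CPM of the lowest erianin library. PSMA5, at 0.39 (SE 0.19), had the widest spread of the ring along with PSMA7, with 71.8 CPM in DMSO replicate 3 and 123 in both other DMSO libraries. PSMA6 was scarce, with 6.93 to 7.15 CPM with DMSO and 7.99 to 9.65 CPM with erianin, and did not pass (log2 fold change 0.32, edgeR adjusted p = 0.116). A readthrough gene on the same strand overlaps PSMA6, so that its count may leave out or include shared reads. PSMA7, the most abundant alpha gene, stood at 468, 463 and 245 CPM with DMSO and 462, 439 and 467 CPM with erianin, and its log2 fold change of 0.22 became -0.03 once DMSO replicate 3 was left out.

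In the beta ring none of the 6 tested genes passed, 4 of the 6 had negative log2 fold changes, and the median was -0.03. On the scale of log2(TPM + 1), where the median of all genes moved to 0.18, all 6 were above 0 with a median of 0.17. Its 3 proteolytic subunits are PSMB5, which cleaves after hydrophobic residues and is the main target of clinical proteasome inhibitors, PSMB6, which cleaves after acidic residues, and PSMB7, which cleaves after basic ones. PSMB5 had 244, 240 and 152 CPM with DMSO and 198, 189 and 194 CPM with erianin. The erianin values thus lay between DMSO replicate 3 and the other DMSO libraries, and the log2 fold change was -0.13 (SE 0.17, edgeR adjusted p = 0.655). PSMB7 showed the same order, with 404, 379 and 264 CPM against 318, 320 and 337 CPM (-0.10, SE 0.15, edgeR adjusted p = 0.694). PSMB6 had 312, 312 and 190 CPM with DMSO and 326, 306 and 326 CPM with erianin (0.24, SE 0.18, edgeR adjusted p = 0.421), and was at 0.030 without DMSO replicate 3. The structural subunits PSMB1, PSMB2 and PSMB4 were at 0.07, -0.01 and -0.05.

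Interferon induces 3 further catalytic subunits that replace the constitutive ones in the immunoproteasome, PSMB9 for PSMB6, PSMB10 for PSMB7 and PSMB8 for PSMB5. PSMB9 had 40.6, 35.2 and 17.4 CPM with DMSO and 43.8, 40.5 and 40.2 CPM with erianin (log2 fold change 0.42, SE 0.27, edgeR adjusted p = 0.344). DMSO replicate 1 lay among the erianin libraries and replicate 3 far below them, and without replicate 3 the log2 fold change was 0.13 (0.65 without replicate 1). PSMB8 had 86.6, 86.4 and 50.1 CPM with DMSO and 78.1, 68.9 and 79.3 CPM with erianin (0.02, SE 0.20, edgeR adjusted p = 0.960). PSMB10 was the scarcest of the 3, with 8.58, 6.62 and 6.36 CPM with DMSO and 6.15, 6.72 and 5.99 CPM with erianin (-0.19, SE 0.15, edgeR adjusted p = 0.452). PSMB8 and PSMB9 overlap each other on opposite strands, and PSMB10 overlaps a readthrough gene on its own strand.

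The mRNA of each inducible subunit was set against that of its constitutive counterpart within a library, on the TPM scale, which divides counts by gene length. The exchange of subunits in assembled particles was not measured. The PSMB8 to PSMB5 ratio was 34.1%, 34.6% and 31.8% with DMSO and 37.9%, 35.1% and 39.4% with erianin. All 3 erianin libraries were above all 3 DMSO libraries, and the mean log2 ratio differed by 0.16 (exact two-sided permutation p = 0.1, the smallest that 3 against 3 libraries allow, 0.3 after adjustment over the 3 ratios). By edgeR the log2 fold changes were 0.02 for PSMB8 and -0.13 for PSMB5, and -0.20 and -0.33 without DMSO replicate 3. PSMB9 stood at 8.54%, 7.42% and 6.01% of PSMB6 with DMSO and at 8.81%, 8.67% and 8.11% with erianin, a difference of 0.23 (exact permutation p = 0.2, adjusted 0.3), which was 0.099 without DMSO replicate 3 and 0.35 without DMSO replicate 1. PSMB10 stood at 2.03%, 1.68% and 2.31% of PSMB7 with DMSO and at 1.85%, 2.02% and 1.71% with erianin, a difference of -0.10 (exact permutation p = 0.6, adjusted 0.6). No ratio could have reached a p of 0.05 with this number of libraries.

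**Figure D2:**
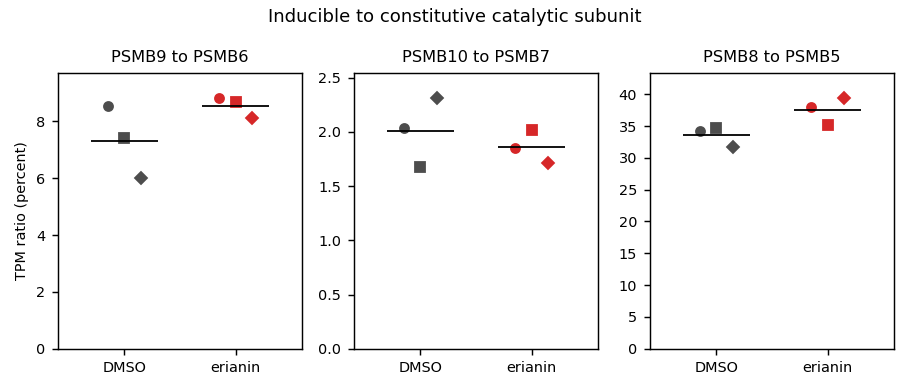
TPM of each inducible catalytic subunit as a percent of its constitutive counterpart, with a point per library (circle, square and diamond for replicates 1, 2 and 3) and a line at the group mean. The groups overlap for PSMB9 to PSMB6 and PSMB10 to PSMB7 and lie apart for PSMB8 to PSMB5, where DMSO spans 31.8% to 34.6% and erianin 35.1% to 39.4%.

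The ATPase ring of the cap, which unfolds substrates, held 3 of the 6 genes that passed, and 5 of its 6 genes had positive log2 fold changes, with a median of 0.21. PSMC6 (ENSG00000100519, chr14:52707172-52728587) had 47.9, 50.2 and 58.6 CPM with DMSO and 71.4, 69.4 and 72.3 CPM with erianin (log2 fold change 0.44, SE 0.10, edgeR adjusted p = 0.0225). PSMC2 (ENSG00000161057, chr7:103344254-103369395) had 78.8, 74.6 and 73.9 CPM with DMSO and 99.4, 91.2 and 88.8 CPM with erianin (0.30, SE 0.08, edgeR adjusted p = 0.0412). PSMC4 (ENSG00000013275, chr19:39971005-39981441) had 181, 178 and 156 CPM with DMSO and 214, 206 and 212 CPM with erianin (0.30, SE 0.08, edgeR adjusted p = 0.0429). In all 3 genes the erianin libraries were the higher ones without overlap, and for PSMC6 the highest DMSO value was 58.6 CPM and the lowest erianin value 69.4 CPM. The other ATPases did not pass. PSMC1 was at 0.10, PSMC5 at 0.12, and PSMC3, the most abundant of the ring by count, at -0.11 with 446, 416 and 314 CPM against 383, 353 and 357 CPM.

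Among the 11 non-ATPase subunits of the cap, 10 had positive log2 fold changes, with a median of 0.09, and 1 passed. PSMD14 (ENSG00000115233, chr2:161308038-161411717), the metalloprotease that removes ubiquitin chains from substrates as they enter, had 80.4, 79.9 and 69.3 CPM with DMSO and 106, 94.8 and 103 CPM with erianin. The groups were apart, with a log2 fold change of 0.41 (SE 0.09, edgeR adjusted p = 0.0244). Its partner in the lid, PSMD7, was at 0.20 (SE 0.09) with no overlap between groups and did not pass. PSMD8, a lid subunit, was the member with the clearest lower values, with 503, 485 and 505 CPM with DMSO and 454, 438 and 453 CPM with erianin. Here DMSO replicate 3 sat with the other DMSO libraries, the log2 fold change was -0.15 (SE 0.06), and the edgeR p of 0.0450 became 0.151 after adjustment. On log2(TPM + 1) it stood at 0.046, below the 0.18 of all genes. The ubiquitin receptor PSMD4 was at 0.09 and the large scaffold subunits PSMD1 and PSMD2 were at 0.22 and 0.01, none of which passed.

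Of the 7 assembly chaperones, which bring the rings together and leave the finished particle, 1 passed. PSMD10 (ENSG00000101843, chrX:108084207-108091618) had 35.8, 37.0 and 28.5 CPM with DMSO and 43.3, 47.9 and 47.2 CPM with erianin, without overlap. Its log2 fold change, 0.45 (SE 0.12, edgeR adjusted p = 0.0417), was the highest of the 43. The other base chaperones had log2 fold changes below 0, with PSMD5 at 52.1, 47.8 and 64.4 CPM against 45.7, 47.9 and 48.7 CPM (-0.21, SE 0.12, edgeR adjusted p = 0.287) and PSMD9 at -0.06. The core chaperones PSMG1, PSMG2, PSMG3 and PSMG4 were at -0.03, -0.08, 0.18 and -0.20, with standard errors between 0.12 and 0.27. PSMG4 had 41.8, 39.0 and 30.0 CPM with DMSO and 32.3, 30.6 and 33.4 CPM with erianin, so that its erianin values lay just above DMSO replicate 3 and below the rest.

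The alternative activators open the core in place of the 19S cap, and none of the 5 genes of this group passed. PSME4, which encodes the nuclear activator PA200, had 68.9, 72.0 and 104 CPM with DMSO and 112, 107 and 106 CPM with erianin (log2 fold change 0.41, SE 0.15, edgeR adjusted p = 0.120). All erianin libraries were above all DMSO libraries, DMSO replicate 3 by a margin of less than 3 CPM. In the interferon-inducible pair that forms PA28, PSME1 stood at 247, 238 and 179 CPM against 212, 211 and 205 CPM (-0.08, SE 0.12) and PSME2 stood at 136, 129 and 89.0 CPM against 133, 123 and 129 CPM (0.12, SE 0.15). PSME3, the nuclear PA28 subunit, had 141, 148 and 157 CPM with DMSO and 142, 143 and 142 CPM with erianin (-0.06, SE 0.07), and PSMF1, the inhibitor PI31, had 303, 294 and 360 CPM against 322, 313 and 316 CPM (-0.01, SE 0.09).

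**Figure D3:**
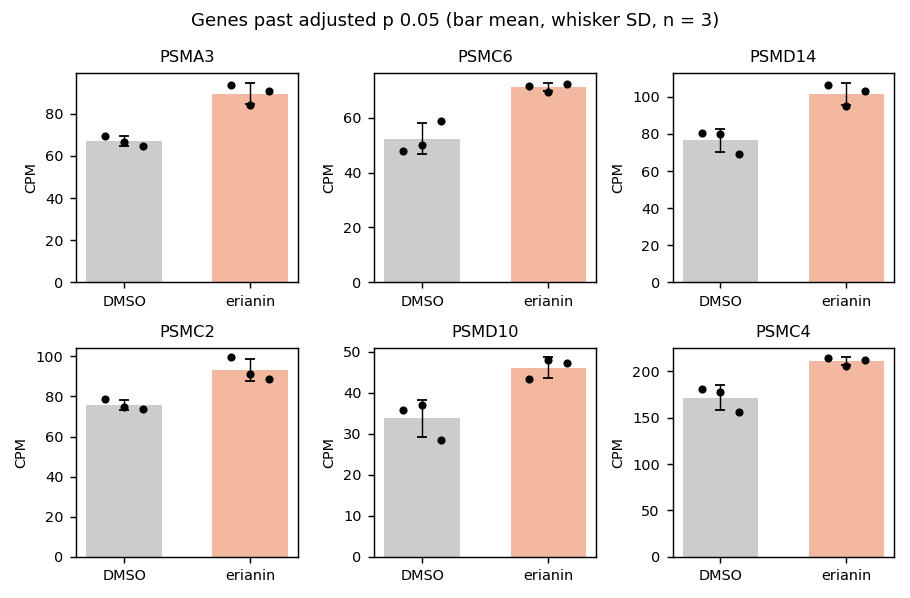
CPM of the 6 genes with an adjusted p under 0.05, with a point per library, bars at the group mean and whiskers of 1 SD (n = 3 per group). In each panel the 3 erianin points lie above the 3 DMSO points, the lowest erianin and highest DMSO values being 69.4 and 58.6 CPM in PSMC6 and 206 and 181 CPM in PSMC4.

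Without DMSO replicate 3, 14 members passed as higher and 10 as lower, where 27.5% of all genes rose and 27.7% fell in that fit. All 6 genes named above were among the 14, together with PSMA4, PSMA5, PSMA6, PSMD1, PSMD3, PSMD6, PSMD12 and PSME4. The 10 lower genes were PSMB4, PSMB5, PSMB7, PSMB8, PSMC3, PSMD2, PSMD8, PSME1, PSMG2 and PSMG4. PSMC6 and PSME4, at 0.53 and 0.61, then passed as DEGs, where 11.4% of all genes did so upwards. The median log2 fold change of the 43 was then 0.03, with 23 above 0 where 51.9% of all genes were, and 11 members changed sign between the fits. By ring, 4 of 5 alpha genes passed as higher and 0 as lower, and 0 of 6 beta genes passed as higher and 3 as lower. The adjusted p from edgeR was 4.81e-08 for PSMB5 at -0.33, and 1.32e-06 for PSMB7 at -0.27, whose erianin values were below both remaining DMSO libraries. These p values leave out the spread that DMSO replicate 3 adds to the DMSO group. With all 6 libraries the adjusted p from edgeR was 0.655 for PSMB5 and 0.694 for PSMB7.

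Leaving out any other library ended most or all of the 6 calls. With DMSO replicate 1 left out PSMA3 alone passed, and with DMSO replicate 2 or any erianin replicate left out 0 of the 43 passed in edgeR, although 6 to 8 members were still higher at an unadjusted p under 0.05, as were 11.1% to 13.2% of all genes. Among all genes the share that passed as higher after adjustment was 3.59% and 3.53% without DMSO replicates 1 and 2 and 1.34% to 1.42% without an erianin replicate. On log2(TPM + 1) with limma 13 members passed as higher, the 6 among them, where 17.3% of all genes did.

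**Figure D4:**
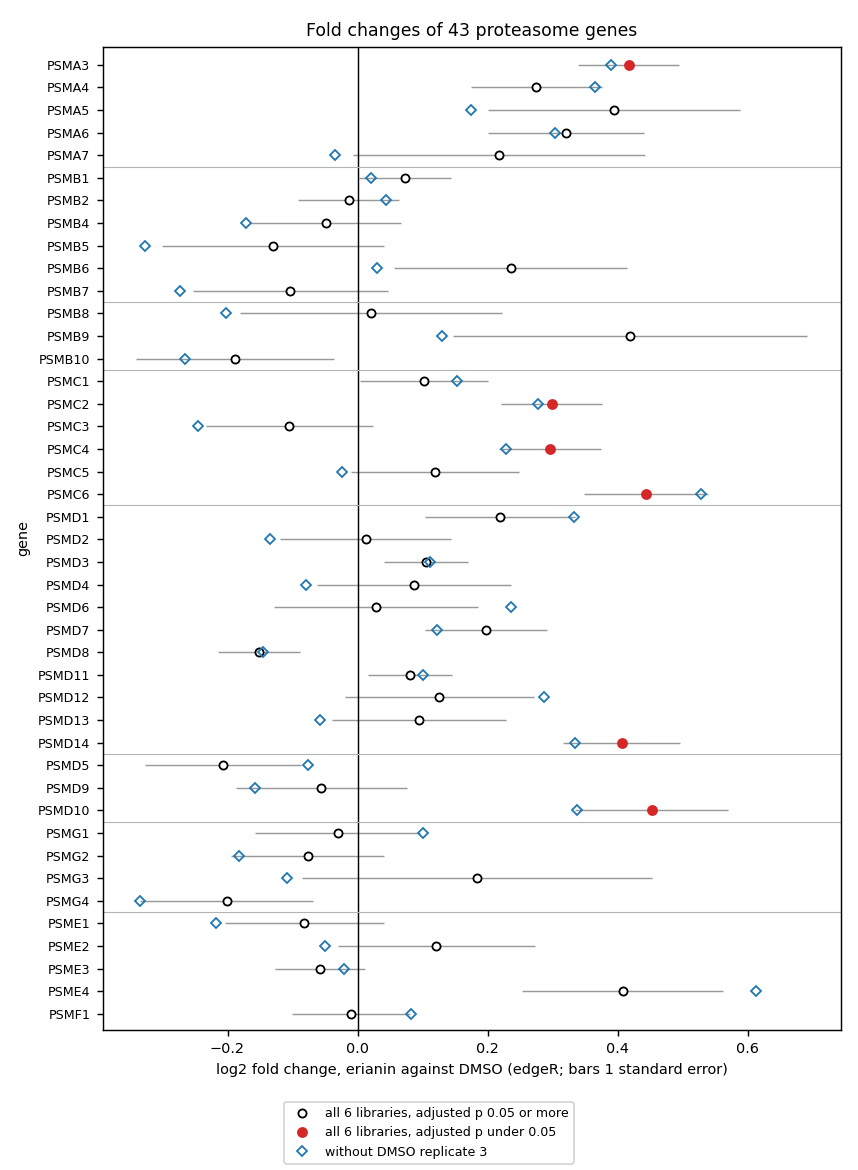
Log2 fold changes of the 43 genes from edgeR with all 6 libraries (circles, filled where the adjusted p is under 0.05, bars of 1 standard error) and without DMSO replicate 3 (diamonds), ordered by subcomplex with lines between groups. The 6 filled circles lie between 0.30 and 0.45, and leaving out DMSO replicate 3 moves PSMB5, PSMB7, PSMB8 and PSMG4 to the left and PSME4 to the right.

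The fold changes varied with the GC content of the transcripts. Among the 43 genes GC content ran from 36.9% to 62.0%, with a median of 49.1% against 49.6% for all genes tested. Across these genes, which share the same 6 libraries and are not independent replicates, the log2 fold change and GC content had a Pearson's r of -0.51 and a Spearman's rho of -0.48, and an r of -0.73 and a rho of -0.72 without DMSO replicate 3. Of the 6 genes that passed, 5 had a GC content under 45%, the lowest being PSMD14 at 36.9%, and PSMC4 was at 55.3%. At this limit, set after the values were seen, the 15 genes below it had a median log2 fold change of 0.30 and the 28 above it one of 0.02. The alpha genes other than PSMA7, at 52.0%, lay between 40.0% and 42.7%. In the beta ring the catalytic genes lay between 48.7% and 54.8% and PSMB4 at 49.1%. PSMB1 at 43.1% and PSMB2 at 44.8% were under the limit, with log2 fold changes of 0.07 and -0.01.

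When each library's trend on gene length and GC content was removed by an offset, 3 members passed as higher, PSMC4, PSMC6 and PSME4, where 7.46% of all genes rose, and 1 as lower, PSMD5, where 15.4% fell. This offset moved the median log2 fold change of all genes to -0.07, and that of the 43 members was 0.04. PSMA3 then stood at 0.22 (edgeR adjusted p = 0.192), PSMD14 at 0.16 (edgeR adjusted p = 0.525), PSMC2 at 0.12 (edgeR adjusted p = 0.439) and PSMD10 at 0.27 (edgeR adjusted p = 0.192). PSMC4 was at 0.25 (edgeR adjusted p = 0.0188), PSMC6 at 0.27 (edgeR adjusted p = 0.0374) and PSME4 at 0.29 (edgeR adjusted p = 0.0278). With the offset and without DMSO replicate 3, 5 members passed as higher, where 15.6% of all genes rose, and 15 as lower, where 33.9% fell. The 5 were PSMC4, PSMC6, PSMD1, PSMD3 and PSME4, and 5 of the 6 beta genes were among the 15. Of the 5 alpha genes 0 passed as higher and 2, PSMA5 and PSMA7, as lower. PSMA5 had passed as higher without DMSO replicate 3 when no offset was used. PSMC4 and PSMC6 were the 2 members that passed as higher in all 4 of these fits.

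**Figure D5:**
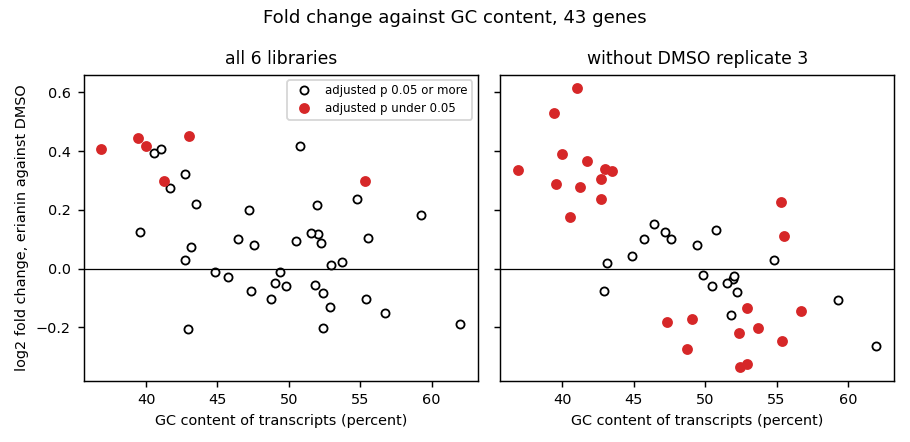
Log2 fold change from edgeR (vertical axis) against the GC content of the gene's transcripts in percent (horizontal axis) for the 43 genes, with all 6 libraries (left) and without DMSO replicate 3 (right), filled where the adjusted p is under 0.05. Points fall from upper left to lower right, with a Spearman's rho of -0.48 on the left and -0.72 on the right.

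Levels were compared between genes on the TPM scale, and so depend on the gene lengths the authors used, which were not checked here. As an example, PSMB1 had a DMSO mean of 154 CPM and 316 TPM, and PSMC5 one of 91.4 CPM and 24.1 TPM. In DMSO the highest were PSMD2 at 550 ± 124 TPM, PSMB7 at 518 ± 133, PSMA7 at 472 ± 171 and PSMB6 at 453 ± 136 TPM (SD, n = 3 each). DMSO replicate 3 was the lowest DMSO library for each of them. Within every DMSO library PSMD2 was above PSMB7, and PSMB7 above PSMA7 and PSMB6, and these differences were not tested. The lowest of the tested genes were PSMB10 at 10.2 ± 2.04, PSMD9 at 3.95 ± 0.689 and PSMA6 at 2.53 ± 0.167 TPM (SD, n = 3 each), and all 3 of these overlap readthrough genes. The subunits of a ring stand in equal numbers in the particle, but PSMA6 had 2.53 TPM where PSMA7 had 472. In CPM, which is not scaled by length, their DMSO means were 7.06 and 392. The summed TPM of the 45 genes was 5741, 5634 and 3967 with DMSO and 6200, 5870 and 6275 with erianin, a ratio of means of 1.20. Since the TPM columns reach 59.1% of their nominal total in DMSO replicate 3 and 72.6% to 78.3% in the other libraries, the ratio was also formed after rescaling each column to its own sum, which gave 1.07, and from CPM, which gave 1.04. The 5741 and 5634 TPM of DMSO replicates 1 and 2 lay just below the lowest erianin value, and the spread of the DMSO group, an SD of 995 TPM, was about as large as the difference of means. In CPM the sums were 8379, 8156 and 6632 with DMSO and 8162, 7838 and 8079 with erianin. There DMSO replicate 1 exceeded every erianin library. After rescaling, DMSO replicate 1, at 7818.5, was just above erianin replicate 2, at 7814.1.

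Genes that act with the proteasome were read from lists in the same fit. Of 14 tested proteins that assemble or regulate it, 2 rose and none fell, where 7.22% of all genes rose and 7.69% fell. POMP, a chaperone of beta ring assembly, had 43.7, 40.5 and 25.9 CPM with DMSO and 58.8, 56.7 and 63.6 CPM with erianin (log2 fold change 0.70, SE 0.19, edgeR adjusted p = 0.0424), which made it a DEG, but with the length and GC offset it stood at 0.34 and did not pass (edgeR adjusted p = 0.346). ZFAND5, a zinc finger protein that stimulates the 26S particle, had 86.5, 82.2 and 100.05 CPM with DMSO and 111, 115 and 115 CPM with erianin (0.35, SE 0.09, edgeR adjusted p = 0.0407). Neither had overlapping groups. ZFAND2A, a relative induced by arsenite and heat, was at 0.40 (edgeR adjusted p = 0.0623), and FBXO7, which binds PSMF1, was at -0.25 (edgeR adjusted p = 0.0930). ECPAS was listed at 0 in all 6 libraries.

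Of 11 genes for the factors that switch proteasome genes on, or that process them, 1 rose, where 7.22% of all genes did. DDI2, the protease that releases active NRF1, had 24.4, 23.2 and 23.1 CPM with DMSO and 30.2, 34.7 and 32.7 CPM with erianin (log2 fold change 0.47, SE 0.09, edgeR adjusted p = 0.0179). Its DMSO values were close together, DMSO replicate 3 included. NFE2L1, which encodes NRF1 itself, had 539, 554 and 614 CPM with DMSO and 525, 514 and 496 CPM with erianin (-0.15, SE 0.08, edgeR adjusted p = 0.220). NFE2L2, which encodes NRF2, had 26.8, 27.4 and 49.7 CPM with DMSO and 44.1, 40.5 and 44.2 CPM with erianin (0.31, SE 0.23, edgeR adjusted p = 0.416). It was higher in the erianin libraries than in DMSO replicates 1 and 2, at 0.66 without DMSO replicate 3 (edgeR adjusted p = 1.13e-09), but DMSO replicate 3 exceeded all of them. Its small MAF partner MAFF was at 0.38 (edgeR adjusted p = 0.0919), its repressor KEAP1 at -0.33 (edgeR adjusted p = 0.196) and HSF1 at -0.13 (edgeR adjusted p = 0.205).

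In the list of ubiquitin genes, the E1 enzymes and the receptors that carry ubiquitinated proteins, 1 of 13 tested genes rose and 1 fell. Over all genes 7.22% rose and 7.69% fell. SQSTM1, the receptor p62 that hands ubiquitinated cargo to autophagy, had 591, 574 and 473 CPM with DMSO and 828, 782 and 810 CPM with erianin (log2 fold change 0.56, SE 0.10, edgeR adjusted p = 0.0115), which also made it a DEG. Its groups were apart. RPS27A, a ubiquitin fusion gene, was at 0.54 with a standard error of 0.27, with 291 CPM in DMSO replicate 3 against 639 and 627 CPM in the other DMSO libraries, and UBQLN4 was at -0.21 (edgeR adjusted p = 0.164).

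None of the 9 tested genes of p97 and its cofactors passed in edgeR, with 1 higher (UBXN7, 0.20) and 1 lower (NSFL1C, -0.27) at an unadjusted p under 0.05, of which DESeq2 called the lower one after adjustment. At that unadjusted limit 15.3% of all genes were higher and 15.6% lower in edgeR. The others chosen for the smallest p were UBXN1 at -0.20 and DERL1 at 0.15, and UFD1 and SELENOS were listed at 0 in all libraries. Of 7 genes of the interferon route to the immunoproteasome 1 rose and none fell, where 7.22% of all genes rose and 7.69% fell. IRF1, the factor that drives PSMB9, was at 0.32 (edgeR adjusted p = 0.0702) with 18.4 to 21.7 CPM with DMSO and 24.9 to 25.5 CPM with erianin, ERAP1 was at -0.33 (edgeR adjusted p = 0.150) and ERAP2, with no more than 3.74 CPM, at 0.74 (edgeR adjusted p = 0.142).

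The 45 genes lie on 17 chromosomes, 8 of them on chromosome 14 and 6 on chromosome 17. On chromosome 14 PSMA3 and PSMC6 rose, while PSME1 and PSME2, which lie next to each other, were at -0.08 and 0.12. The 6 genes that rose lie on 5 chromosomes, 2, 7, 14, 19 and X.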

How the data were processed

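Total RNA of 6 CAL62 libraries was sequenced on the BGISEQ-500 platform. The authors deposited 2 tables of these libraries: read counts per gene without normalization, and TPM values, which the authors scaled by gene length and library total. The submitters' processing notes list fastp 0.23.2, STAR 2.7.10, featureCounts 2.0.1, StringTie 2.2.1 and GRCh38, without saying which step made which table, and the use of strand in counting is not given in the sources used here. Of 65807 rows in the count table, 26480 carry no identifier, hold 0.00385% to 0.00515% of the counts and entered neither library sizes nor tests. Identifiers were matched to symbols, and 38259 of 39168 matched. Of rows that share an identifier the row with most counts was taken; each proteasome gene stood on 1 row.

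Counts were analysed with edgeR 4.0.16 under R 4.3.3 (quasi-likelihood test with glmQLFit and glmQLFTest, TMM factors, filterByExpr) on the whole table, with Benjamini-Hochberg adjustment over all 12821 genes tested. A gene passed at an adjusted p under 0.05, and a DEG also had a log2 fold change above 0.5 or below -0.5. SE were derived from the F statistic. Alternatives were DESeq2 1.42.0, RLE and upper-quartile factors, other count filters, limma 3.58.1 on log2 TPM with a pseudocount of 1 or 0.1 for genes averaging 1 TPM or more, or for all genes, a block for the replicate number, a loess offset (span 0.5) on transcript length and GC content, and each library left out. The offset without DMSO replicate 3 and the rescaled TPM sums were added after seeing the data. The fits were tested on simulated counts with known fold changes. These were larger than that of any proteasome gene in the main comparison, so the simulation does not show how well changes of that size are found. Ratios were tested with SciPy 1.17.1; pandas 2.3.3 and matplotlib 3.10.9 in Python 3.11.15 served for tables and figures. Gene coordinates and GC content came from GENCODE release 29.

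The members and lists were chosen with earlier results of these data known. Genes given in every library were the 10 members with the smallest adjusted p, the 5 largest changes in each direction at a mean of at least 1 CPM, the catalytic subunits, the activators and PSMF1. From each other list up to 4 genes with the smallest adjusted p were named, with POMP, NFE2L1, NFE2L2 and SQSTM1 added; PSMA5, PSMA7, PSMC3 and single values of further members and markers were added after their values were seen. With 3 libraries per group a two-sided exact permutation test cannot go below 0.1. TAP2 and VIMP, of the lists, were not analysed here, and some genes that enter a list's counts are not reported here.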

Additional observations from a re-analysis of the deposited data

How the results depend on the processing

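The 6 genes that passed as higher were called with the same direction by DESeq2, RLE and upper-quartile factors and under a filter of 10 counts per library. In these fits, in that order, 6.91%, 7.19%, 9.06% and 7.12% of all genes passed as higher. Upper-quartile factors made 1 of them, PSMD10, a DEG, where 6.41% of all genes were higher DEGs. Without the low-count filter 3 passed, PSMA3, PSMC6 and PSMD14, where 4.3% of all genes passed as higher. The replicate numbers did not pair the samples, the correlations of same-numbered deviations being -0.00664, 0.00767 and -0.0494. With the replicate block 0 members passed, where 3.1% of all genes passed as higher and 2.71% as lower. At an unadjusted p under 0.05, 9 members were higher in that fit, as were 14% of all genes. With the block and the offset 0 members passed as higher and 1, PSMD5, as lower, where 5.55% and 10.7% of all genes did. The block also left 0 genes passing as higher among the associated proteins, the transcription factors and the interferon route, and 0 passing as lower in the ubiquitin list. DESeq2 called 1 lower gene in the p97 list and 2 higher genes in the interferon list. The offset gave 3 higher and 1 lower, and the offset without DMSO replicate 3 gave 15 lower.

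On TPM values with limma, 13 members passed as higher with either pseudocount and 11 without the filter, 5 of them DEGs each time. With pseudocounts of 1 and 0.1 and without the filter, 17.3%, 16.9% and 11.2% of all genes passed as higher. Higher DEGs were 9.41%, 10.3% and 5.86% of all genes. The TPM scale moved the median of all genes to 0.18, 0.20 and 0.12, and the median of the members was 0.30 each time. The subcomplex medians with pseudocounts of 1 and 0.1 were 0.47 and 0.50 for the alpha ring, 0.17 and 0.17 for the beta ring, 0.40 and 0.41 for the ATPases, 0.31 and 0.31 for the non-ATPases, 0.12 and 0.14 for the cap chaperones, 0.15 and 0.15 for the core chaperones, and 0.19 and 0.19 for the activators, those without the filter being equal to those with a pseudocount of 1. Upper-quartile factors moved the non-ATPase median to 0.15. With the offset, the offset and block, and the offset without DMSO replicate 3, the medians were 0.18, 0.20 and 0.077 for the alpha ring, 0.13, 0.14 and 0.016 for the ATPases, and 0.045, 0.053 and -0.029 for the non-ATPases. The last of these fits put the members' median at -0.055 and those of the beta ring, cap chaperones and core chaperones at -0.27, -0.15 and -0.22. The cause of these moves was not tested.

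With each library left out in turn, 0 to 14 members passed as higher and 0 to 10 as lower, 0 to 2 of them higher DEGs, the alpha ring median ran from 0.25 to 0.37 and that of the cap chaperones from -0.12 to 0.036. The ranges for higher and lower genes were 0 to 5 and 0 to 3 among the associated proteins, 0 to 4 and 0 to 3 among the transcription factors, 0 to 3 and 0 to 3 for p97, 0 to 5 and 0 to 6 for the ubiquitin list, and 0 to 3 and 0 to 2 for the interferon route, the highest values being those without DMSO replicate 3. The log2 ratio of PSMB10 to PSMB7 ran from -0.22 to 0.0059, turning positive without DMSO replicate 3. The summed TPM ratio of the cap chaperones was 1.24, and 1.05 by CPM and 1.09 after rescaling; that of the activators was 1.15, and 1.02 in both cases.

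The genes whose direction turned were members that did not pass in the main comparison, except PSMD14, at -0.037 with the offset and without DMSO replicate 3. The same fit gave -0.047 for PSMB6, -0.25 for PSMB8, -0.055 for PSME2 and 0.035 for PSMF1. The TPM fits with pseudocounts of 1 and 0.1 turned PSMD8 (0.046 and 0.046), PSMD5 (0.0021 and 0.0022), PSMG4 (0.0072 and 0.0089), PSMB10 (0.014 and 0.017), PSMB5 (0.10 and 0.10), PSMB7 (0.12 and 0.12), PSME1 (0.13 and 0.13), PSME3 (0.14 and 0.14) and PSMF1 (0.19 and 0.19) positive, as did upper-quartile factors PSMF1 (0.042). On log2(TPM + 1) all 43 members were above 0, members not listed here included, where 74.8% of all genes were. PSMB8 was at -0.058 with the offset and -0.037 with the block added. With libraries left out, PSMB7 ran from -0.27 to 0.011, PSMB8 from -0.20 to 0.14, PSME1 from -0.22 to 0.00028, PSME2 from -0.050 to 0.23 and PSMF1 from -0.071 to 0.081. Counts limit PSMB11, PSMA6, PSMB10 and PSMD9, and 3 libraries per group, 1 of them apart, limit the rest.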
